A study of Mus musculus with 6 samples.

Results

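The control M2 macrophages (Mφs) of this study are bone marrow-derived Mφs that received a control antisense oligonucleotide (Ctr) and were then polarized (M2) by IL-4 together with IL-13. They were chosen by their labels, as the 3 Ctr libraries among the 6 libraries of the series, and are described over the 21859 protein-coding genes among the 41549 genes of the deposited table. Wild-type C57BL/6N mice of 10 to 12 weeks supplied the marrow, which was cultured with M-CSF, the growth factor of the macrophage lineage, at 10 ng/ml for 7 days. The cells were then transfected by lipofection with 50 pmol of the control oligonucleotide and exposed to 10 ng/ml IL-4 and 10 ng/ml IL-13 for 48 h. All 3 libraries share these steps, and they come from separate experiments by the methods of the study. The libraries in which a tRNA fragment was targeted are not analysed here. No culture without transfection or without the cytokines is analysed here, so the values below are levels after both treatments and no induction could be tested. RNA was read from whole cultures, in which fewer cells of a type and less RNA per cell cannot be told apart.

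Macrophages are phagocytes whose growth and survival depend on the M-CSF receptor, and they digest what they take up in lysosomes rich in cathepsins. IL-4 and IL-13 bind receptors that share the IL-4 receptor α chain and act through the kinases JAK1, JAK2, JAK3 and TYK2 on the transcription factor STAT6, which switches on genes such as Chil3, Retnla, Arg1, Mrc1 and Mgl2 in mouse Mφs. Type I interferons act through a different receptor on transcription factors that include STAT2 and IRF9 and bind the interferon-stimulated response element in the promoters of antiviral genes.

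Letters tied to both routes were looked up in the promoters. RefSeq promoter windows (build GRCm38.p6, 250 bases before to 50 bases after each gene start) were searched on both strands for the STAT6 site, TTC and GAA with any 4 bases between them, and for the core of the interferon-stimulated response element, GAAA followed after any 2 bases by another GAAA. The following stretches are examples picked among list genes that hold the letters. They lie upstream of the start, run 5′ to 3′ on the strand of the gene, and carry the searched letters, or their reverse complement, in capitals. Ifit3 and Ifit3b encode interferon-induced antiviral proteins, Isg15 a ubiquitin-like protein, Rsad2 the enzyme viperin, Oas3 a sensor of double-stranded RNA and Bst2 the protein tetherin, which holds budding viruses at the cell surface. The stretch of Ifit3 is chr19:34583353-34583436 (plus strand), that of Ifit3b chr19:34607749-34607832 (plus), that of Isg15 chr4:156200855-156200916 (minus), that of Rsad2 chr12:26456543-26456592 (minus), that of Oas3 chr5:120777705-120777754 (minus) and that of Bst2 chr8:71537567-71537622 (minus).
Ifit3: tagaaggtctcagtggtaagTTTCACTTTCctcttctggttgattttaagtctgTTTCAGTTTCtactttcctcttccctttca
Ifit3b: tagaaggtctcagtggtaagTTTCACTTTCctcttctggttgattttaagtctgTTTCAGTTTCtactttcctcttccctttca
Isg15: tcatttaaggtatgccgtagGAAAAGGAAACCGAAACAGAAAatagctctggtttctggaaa
Rsad2: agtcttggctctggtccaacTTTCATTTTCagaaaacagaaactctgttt
Oas3: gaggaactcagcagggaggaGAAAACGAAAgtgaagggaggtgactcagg
Bst2: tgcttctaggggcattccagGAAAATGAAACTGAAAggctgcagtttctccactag

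Among the IL-4/IL-13 response genes, the STAT6 letters stood upstream of Retnla, a secreted resistin-like protein, of Ccl17, a chemokine for T cells, of Pdcd1lg2, a ligand of the checkpoint receptor PD-1, and of Clec7a, the β-glucan receptor dectin-1. Their stretches are chr16:48842444-48842493 for Retnla (plus strand), chr8:94810279-94810328 for Ccl17 (plus), chr19:29410817-29410866 for Pdcd1lg2 (plus) and chr6:129472881-129472930 for Clec7a (minus).
Retnla: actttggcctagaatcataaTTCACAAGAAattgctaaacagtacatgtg
Ccl17: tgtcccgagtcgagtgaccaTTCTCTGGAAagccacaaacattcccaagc
Pdcd1lg2: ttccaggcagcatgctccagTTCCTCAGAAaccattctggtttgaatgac
Clec7a: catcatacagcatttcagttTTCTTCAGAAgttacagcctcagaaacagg

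The stretches of Ifit3 and Ifit3b are identical over all 84 bases, and the genes are close copies, so the split of reads between them is uncertain. The interferon letters were found in the windows of 19 of the 35 type I interferon response genes with a RefSeq promoter (54.3%), against 353 of 8809 protein-coding genes past the low-count filter (4.01%) and 3.44% of all 32851 promoters. Over all their windows these 19 genes held 31 matches, 26 of them before the start, and 11 genes held more than 1. A site seen from more than 1 start of a gene is counted each time. The STAT6 letters were found in 5 of 28 promoters of the IL-4/IL-13 list (17.9%) and in 7 of 35 of the type I interferon list (20%). They were found in 585 of 8809 genes past the filter (6.64%). The share was thus no higher in the IL-4/IL-13 list than in the interferon list. Of the STAT6 targets named above, only Retnla was among the list genes with these letters, and not every list gene had a RefSeq promoter. In Oas1a and Oas1g, which are close copies too, a STAT6 site and an interferon site overlap. A match of letters is a description and does not show that a factor bound there.

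Total counts were 22215016 in Ctr 1, 25175519 in Ctr 2 and 22174157 in Ctr 3, and protein-coding genes took 99.3%, 98.9% and 99.1% of them. The libraries did not resemble each other equally. Of the 10943 protein-coding genes past the low-count filter, 364 differed by more than 2-fold between Ctr 1 and Ctr 2 and 368 between Ctr 1 and Ctr 3, but 104 between Ctr 2 and Ctr 3. Ctr 1 therefore stands apart. Some measures of spread and the mean levels of the type I interferon, G2/M and cholesterol synthesis genes are given below with and without it. Other results that rest on Ctr 1 are given with the values of each library. The counts of Ctr 2 and Ctr 3, the closest pair, differed by more than counting noise (mean chi-square of 17.3 over genes), which speaks only to whether 1 library was deposited under both names.

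The cells carried the transcripts of macrophages at high level. Levels between genes are compared as TPM (transcript abundance scaled to the same sum in each library), which accounts for gene length, and are given as mean ± SD over the 3 libraries. Adgre1 (ENSMUSG00000004730, chr17:57358691-57483527), which encodes the surface receptor F4/80, had 842 TPM in Ctr 1, 756 in Ctr 2 and 917 in Ctr 3, and ranked 139 among protein-coding genes. Csf1r (ENSMUSG00000024621), the M-CSF receptor, had 1477, 1239 and 1351 TPM and ranked 78. Both receptors were of similar level in every library, with Ctr 2 the lowest for each. Of 30 macrophage lineage genes, 29 had at least 1 TPM in every library, against 46.8% of all protein-coding genes. The median of the list was 946 TPM against 0.599 TPM for all protein-coding genes. Lyz2 (lysozyme) led at 15145 ± 2052 TPM, followed by Lgals3 (galectin-3) at 13170 ± 744 and Apoe (apolipoprotein E) at 8467 ± 1109. The complement gene C1qb had 4792 ± 344 TPM and the lysosomal membrane gene Cd68 had 4732 ± 261 TPM. Cx3cr1, the fractalkine receptor, was the exception at 0.0390 ± 0.0141 TPM, and Ccr2, the chemokine receptor of inflammatory monocytes, was low at 5.83 ± 1.07 TPM. As a whole the list held 7.35%, 7.13% and 7.16% of protein-coding TPM.

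All 50 macrophage transcription factors listed had at least 1 TPM in every library, against 46.8% of all protein-coding genes. Atf3, a stress-induced repressor of inflammatory genes, was the most abundant at 957 ± 87.8 TPM, ahead of Id2 at 419 ± 62.9 TPM. Spi1, which encodes the lineage factor PU.1, had 274 ± 11.4 TPM. Factors tied to IL-4 signalling lay in the same range, with Egr2 at 224 ± 22.4, Pparg at 211 ± 7.72 and Stat6 at 181 ± 7.0 TPM, whereas Irf4 had 16.9 ± 1.89 TPM. Id3, an inhibitor of DNA binding by other factors, had 13.3, 14.5 and 39.7 TPM, so that Ctr 3 lay above the other 2.

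Genes of other cells were mostly low, with a median under 1 TPM in the neutrophil, dendritic cell, lymphocyte, fibroblast and endothelial lists. Osteoclast and fusion genes (7 of 10 with at least 1 TPM in every library) and tissue macrophage genes (6 of 14) were higher and are described at the end. Neutrophil Ly6g, dendritic cell Flt3 and Xcr1, T cell Cd3g and Cd8a, endothelial Cldn5 and fibroblast Lum had no read in any Ctr library, a count that allows up to 0.135 CPM (reads scaled to library size) in Ctr 3, the shallowest library, at 3 reads. These floors and all intervals of counts cover counting error only. At least 1 TPM in every library was reached by 1 of 10 dendritic cell genes, 1 of 13 lymphocyte genes (Cd4), 0 of 14 fibroblast genes, 4 of 13 neutrophil genes and 3 of 7 endothelial genes, against 46.8% of all protein-coding genes. Csf3r, the receptor for granulocyte colony-stimulating factor, had 87.5, 117 and 131 TPM, and Mmp8, a collagenase, had 27.5, 77.4 and 52.4 TPM, while S100a8 had 4.03, 3.23 and 2.20 TPM. The endothelial share of 3 of 7 was near that of all protein-coding genes. Vwf, which encodes von Willebrand factor, had 32.2, 18.9 and 15.1 TPM, but the endothelial cadherin Cdh5 had 0.169 ± 0.0604 TPM. The summed level of the fibroblast list was 14.6 TPM in Ctr 1, 3.19 in Ctr 2 and 4.23 in Ctr 3, with Acta2 at 5.28, 0.510 and 0.885 TPM and Col1a1 at 0.959, 0.0569 and 0.190 TPM. The bearing of these traces on other differences between the libraries was not tested.

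The transcriptome was concentrated in few genes. The 10 most abundant protein-coding genes held 20.4% ± 0.158 of protein-coding TPM, the 100 most abundant 45.5% ± 0.723 and the 1000 most abundant 74.6% ± 0.0782 (SD, n = 3). A total of 10236 genes reached 1 TPM in every library, 110 had a mean of 1000 TPM or more, and 7459 (34.1%) had no read in any. Of the top 100 of each library, 90 genes were common to all 3.

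**Figure D1:**
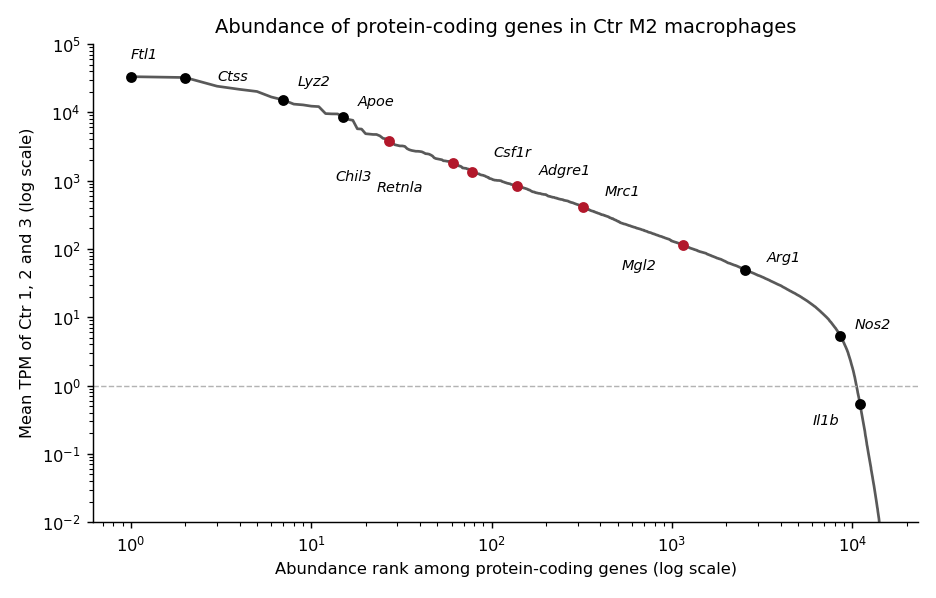
Mean TPM of protein-coding genes over Ctr 1, 2 and 3 against abundance rank, both on log scales, with the 6 lineage and polarization markers in red and other named genes in black. Ftl1 and Ctss head the curve, Chil3 (rank 27) and Retnla (rank 61) lie above Csf1r, Adgre1 and Mrc1, and Il1b falls under the dashed line at 1 TPM.

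Iron storage and lysosomal digestion headed the ranking. Ftl1, the light chain of ferritin, was first at 33230 ± 2070 TPM with 34741 TPM in Ctr 1, 34080 in Ctr 2 and 30870 in Ctr 3, and the heavy chain Fth1 ranked 12 at 9569 ± 186 TPM. Ctss (cathepsin S) ranked 2 at 32292 ± 4559 TPM and was the first gene in Ctr 2 and Ctr 3. Psap, the precursor of the saposins, had 24108 ± 2611 TPM, Ctsd (cathepsin D) 16751 ± 793 TPM and Ctsb (cathepsin B) 9457 ± 63.2 TPM. The rest of the leading 15 were mt-Co1, mt-Atp6, mt-Co2, B2m, Cd74, Lyz2, Lgals3, Apoe and Gpnmb. The mt genes are of the mitochondrial genome, B2m and Cd74 serve antigen presentation, and Gpnmb encodes a transmembrane glycoprotein of endolysosomes. All 35 lysosomal genes had at least 10 TPM in every library, against 6883 of all 21859 protein-coding genes. The lowest was Scarb2 at 68.4 ± 5.02 TPM, and together the 35 held 11.4% ± 0.339 of protein-coding TPM. None of the 35 had a range over 2-fold among the libraries, which is close to the 5.03% of all genes past the filter. The 16 iron and heme genes held 4.65% ± 0.227, nearly all of it in ferritin, while Slc40a1, the iron exporter ferroportin, had 22.9 ± 4.41 TPM and the haemoglobin receptor Cd163 0.372 ± 0.129 TPM.

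The 13 genes of the mitochondrial genome held 9.97% of protein-coding TPM in Ctr 1, 6.80% in Ctr 2 and 7.74% in Ctr 3. In 12 of 13 the level in log2 CPM was highest in Ctr 1, as it was in 35.6% of all genes past the filter. There mt-Co1, a subunit of cytochrome oxidase, had 24886 TPM against 18769 and 21346. Nuclear genes of the respiratory chain moved less, with a score (mean log2 CPM of the list) of 6.55, 6.46 and 6.44. They leaned the same way, with 20 of 30 highest in Ctr 1, against 35.6% of all genes past the filter. Antigen presentation genes went the other way and held 4.07%, 5.63% and 5.70%. B2m, the light chain of MHC class I, had 14855, 22007 and 23602 TPM, and Cd74, the invariant chain of class II, had 10691, 12969 and 13225 TPM, both lowest in Ctr 1. Ctr 1 was the lowest in 16 of the 18 members, against 36.1% of all genes past the filter.

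M2 genes were present, but at very different levels. The IL-4/IL-13 response list had a median of 49.9 TPM over 43 genes. Of these, 40 reached 1 TPM in every library, against 46.8% of all protein-coding genes. Of the 45 genes listed, Ear11 is not analysed here and Clec7a is described apart. Chil3 (ENSMUSG00000040809, chr3:106147554-106167564), a chitinase-like lectin also called Ym1, had 5460 TPM in Ctr 1, 3266 in Ctr 2 and 2709 in Ctr 3. Retnla (ENSMUSG00000061100, chr16:48842551-48844461) had 2773, 1221 and 1443 TPM. Both secreted markers were highest in Ctr 1, with a difference from the mean of Ctr 2 and Ctr 3 of 0.83 log2 for Chil3 and 1.02 log2 for Retnla. Chil4, a close copy of Chil3, had 1.31 ± 0.240 TPM, and the split of reads between these copies is uncertain. Atp6v0d2, a subunit of the vacuolar proton pump, had 2668 ± 41.0 TPM, the scavenger receptor gene Cd36 had 2157 ± 288 TPM and the elastase gene Mmp12 had 1144 ± 118 TPM.

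Mrc1 (ENSMUSG00000026712, chr2:14229392-14332057), the mannose receptor CD206, had 458, 361 and 421 TPM and ranked 319. Mgl2 (ENSMUSG00000040950, chr11:70130329-70137550), a galactose-type lectin, had 129, 94.4 and 120 TPM and ranked 1148. Neither differed between libraries by more than 2-fold. Clec7a is listed in the table as a polymorphic pseudogene and so falls outside the protein-coding rows; it had 2010, 2809 and 2921 TPM, a level that would rank 42.

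Arg1, the arginase used as a standard M2 marker, was modest at 33.6, 60.4 and 55.7 TPM, rank 2537, and was lowest in the library in which Chil3 and Retnla were highest. Ccl17 had 5.71, 1.70 and 2.97 TPM and Ccl22 had 17.3, 12.3 and 14.1 TPM. The list ended with Ccl24 (eotaxin-2) at 1.16 ± 0.509 TPM, Ch25h, which makes 25-hydroxycholesterol, at 0.287 ± 0.164 TPM and Alox15, a lipoxygenase, at 0.217 ± 0.0431 TPM. The score of the 39 list members past the filter was 6.10, 6.08 and 6.10 log2 CPM in Ctr 1, 2 and 3. Single members differed in both directions, so the equal scores do not mean equal members. Differences of Ctr 1 from the mean of Ctr 2 and Ctr 3 ran from -1.55 to 1.82 log2. A range over 2-fold was found for 5 of the 39, against 5.03% of all genes past the filter. The median SD was 0.207 log2, against 0.127 for all these genes. The list held 1.78%, 1.35% and 1.30% of protein-coding TPM.

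The signalling chain for the cytokines was measured as well. Of its 15 members past the filter, 1 had a range over 2-fold, near the share of 5.03% of all genes. This was the histone demethylase gene Kdm6b (8.12, 5.61 and 3.31 TPM). The common receptor chain Il4ra had 32.1, 30.3 and 33.0 TPM. Il2rg, which completes the type I receptor, had 171, 222 and 285 TPM, and Il13ra1, which completes the type II receptor, had 8.81, 13 and 13.1 TPM, both lowest in Ctr 1. Il13ra2, the decoy receptor, had 0.181 ± 0.126 TPM. Jak1 had 138 ± 13.9 TPM, Jak2 114 ± 23.2 and Jak3 9.13 ± 0.108 TPM. Among inhibitors of the pathway, Socs1 had 8.78 ± 0.959 TPM and Cish 7.4 ± 1.13 TPM, whereas the phosphatase genes Ptpn6 and Ptpn1 had 355 ± 63.8 and 161 ± 6.65 TPM.

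**Figure D2:**
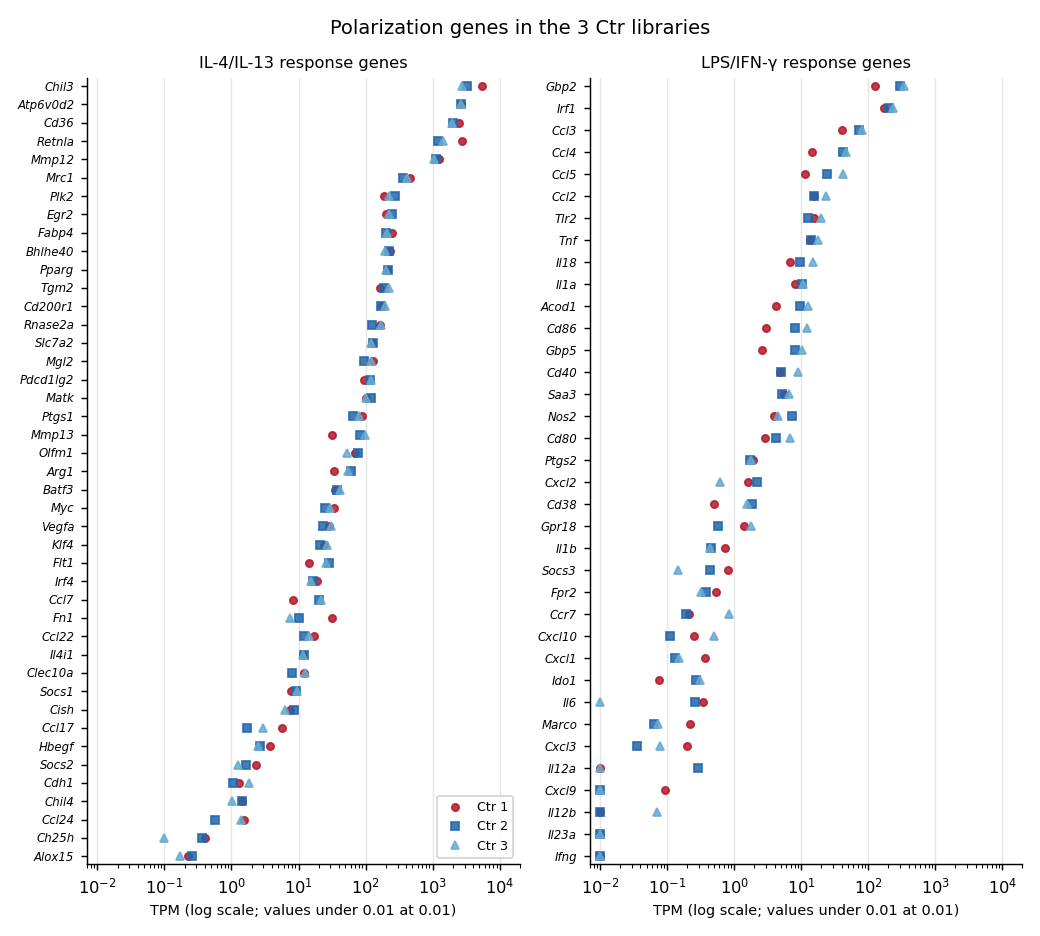
TPM (log scale) of each IL-4/IL-13 response gene (left) and each LPS/IFN-γ response gene (right) in Ctr 1, Ctr 2 and Ctr 3, ordered by mean level, with values under 0.01 drawn at 0.01. The left list has a median of 49.9 TPM and the right list of 1.64 TPM.

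Genes typical of Mφs activated by lipopolysaccharide (LPS) and IFN-γ had a median of 1.64 TPM over 36 members. Il1b (interleukin 1β) had 0.542 ± 0.166 TPM and Il6 had 0.201 ± 0.179 TPM, Il12b had reads in Ctr 3 only, and Il23a and Ifng had no read in any library. Nos2, the inducible nitric oxide synthase, had 3.94, 7.38 and 4.53 TPM. The upper end of the list was held by Gbp2, an interferon-induced GTPase, at 126, 300 and 337 TPM, Irf1 at 174, 207 and 237 TPM and the chemokine gene Ccl3 at 40.7, 72.2 and 81.9 TPM. In each of these 3 genes Ctr 1 was the lowest, as it was in 16 of the 19 members past the filter and in 36.1% of all genes.

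The spread among the libraries was measured on log2 CPM after scaling by trimmed mean of M-values (TMM). The median SD of a gene was 0.127 log2, and the common biological coefficient of variation was 0.152 over the 3 libraries and 0.100 without Ctr 1. A range over 2-fold was found for 550 of the 10943 genes (5.03%). Spread depended on abundance, since 21.9% of genes with a mean under 1 TPM and 2.28% of those between 10 and 100 TPM passed that range. Counting genes by the library that stood alone, Ctr 1 was over 2-fold below both others in 160 genes (1.46%) and above both in 67 (0.612%). For Ctr 2 these counts were 15 below (0.137%) and 13 above (0.119%), and for Ctr 3 they were 19 below (0.174%) and 12 above (0.11%).

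**Figure D3:**
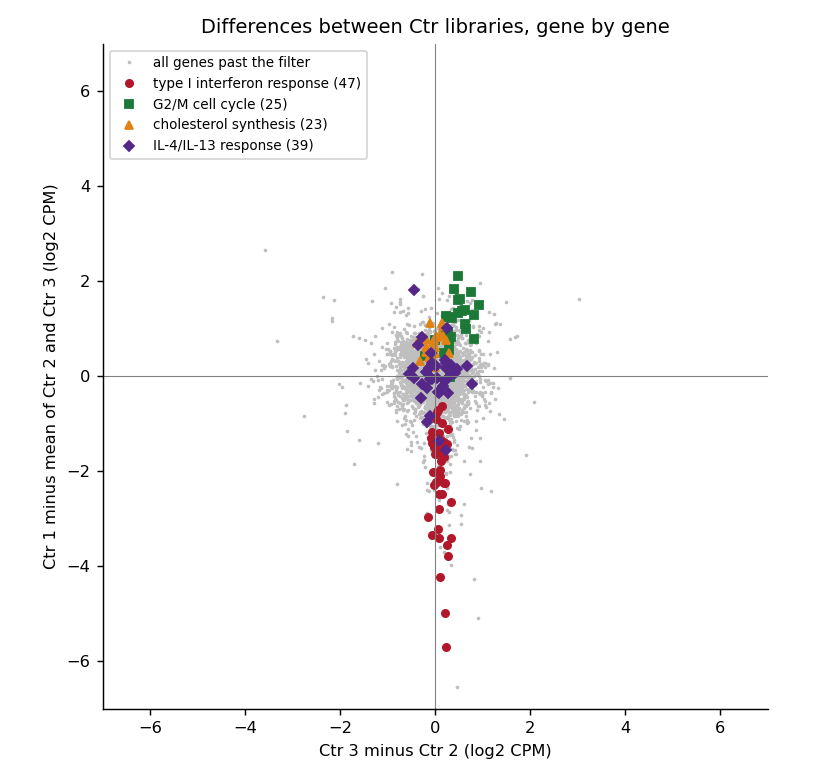
Each point is a protein-coding gene, with the log2 CPM difference of Ctr 3 from Ctr 2 on the horizontal axis and that of Ctr 1 from the mean of the other 2 on the vertical axis, and 4 lists in colour. Type I interferon response genes run down the vertical axis to -5.69 while staying near 0 on the horizontal one. Of 25 G2/M genes, 24 lie above 0 on the vertical axis, and the lowest is at -0.013.

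The largest single block was the type I interferon response, which was lower in Ctr 1. All 47 members past the filter were lowest in Ctr 1, against 36.1% of all genes. A range over 2-fold was found for 42 of them, against 5.03%, and 40 had Ctr 1 over 2-fold below both others, against 1.46%. These 40 are also 25% of the 160 genes in which Ctr 1 stood below. The median difference of Ctr 1 from the mean of Ctr 2 and Ctr 3 was -1.70 log2 in the list and 0.00098 log2 over all genes. With Ctr 1 left out, 0 of the 47 members differed by more than 2-fold between Ctr 2 and Ctr 3, against 114 of 11072 genes. The count of 0 is thus near the share of all genes. The list score was 5.42 log2 CPM in Ctr 1, 7.48 in Ctr 2 and 7.57 in Ctr 3, a range of 2.15, and without Ctr 1 the range was 0.0971. This pattern was known from earlier work on these data when the list was chosen, so the counts describe it and are not independent support for it.

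Differences within the list ran from -5.69 to -0.63 log2. Ifit3b had 1.05 TPM in Ctr 1 (15 reads), 54.8 in Ctr 2 (880 reads) and 63.9 in Ctr 3 (921 reads), the largest difference of the list. Slfn1, a member of the Schlafen family, had 4.65, 137 and 158 TPM. Ifit3 had 42.3, 747 and 800 TPM. Isg15 had 70.0, 461 and 487 TPM, and Rsad2 had 27.4, 218 and 195 TPM. In each of these genes Ctr 2 and Ctr 3 lay close together and far above Ctr 1. Of the 3 most abundant members, Ly6e had 184, 987 and 1245 TPM (-2.64 log2), Bst2 had 362, 956 and 911 TPM (-1.41 log2) and Ifi207 had 470, 752 and 776 TPM (-0.75 log2).

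The factors of the pathway were lowest in Ctr 1 too. Irf7, which amplifies the interferon response, had 35.8, 375 and 443 TPM. Stat2 had 60.7, 182 and 182 TPM and Irf9 had 30.8, 44.0 and 48.3 TPM, the smallest difference of the list at -0.63 log2. The interferon genes Ifnb1 and the 4 listed Ifna genes had no read in any library, so they gave no level to compare. The receptor chains Ifnar1 (49.4, 43.1 and 38.9 TPM) and Ifnar2 (86.7, 90.8 and 98.9 TPM) were similar in all 3. Ifi44l was the only member without a read, and Mx1, listed as a polymorphic pseudogene and so outside the list counts, had 6.21, 64.9 and 73.4 TPM.

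**Figure D4:**
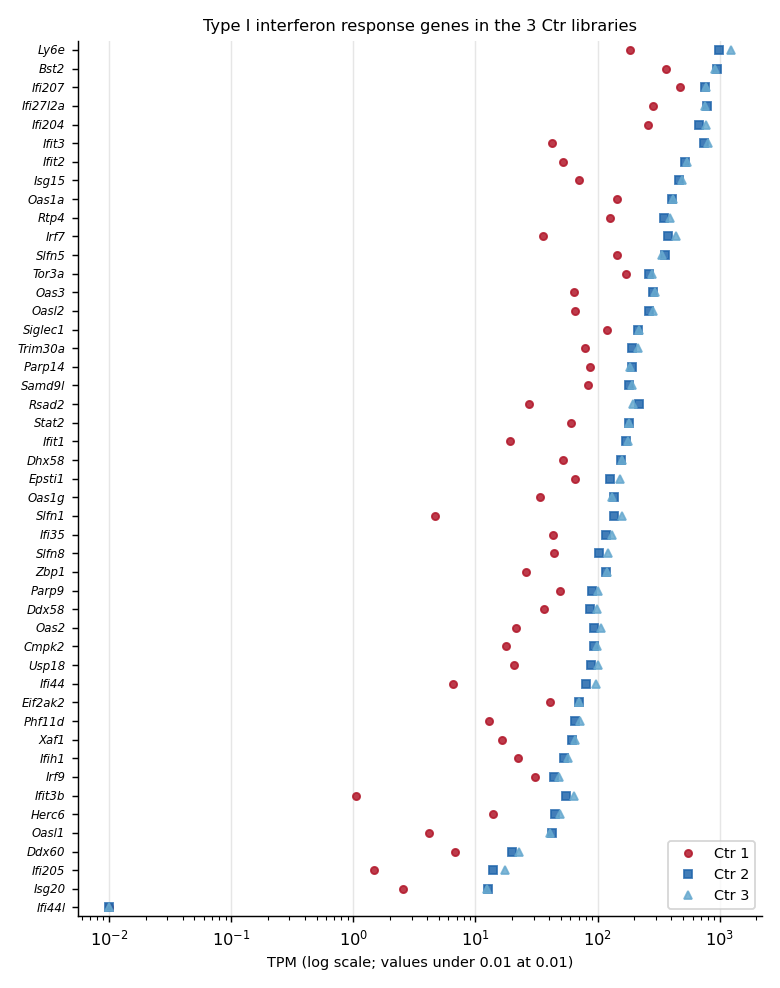
TPM (log scale) of type I interferon response genes in Ctr 1, Ctr 2 and Ctr 3, ordered by mean level. Ctr 1 lies to the left of both other libraries in every gene drawn that has reads, and Ctr 2 and Ctr 3 nearly coincide.

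The promoter letters can be set beside this order. Of the 160 genes in which Ctr 1 was over 2-fold below, 121 had a RefSeq promoter and 43 of these held the interferon-stimulated response element (35.5%). Outside the interferon list, it was 26 of 91 (28.6%), among them Gbp2, Gbp5, Ifitm3, Irgm1 and Lgals9. Among the genes in which Ctr 1 was over 2-fold above, it was 1 of 48 (2.08%), against 4.01% of genes past the filter. The 26 genes include interferon-induced genes that the list left out, such as Gbp2 and Ifitm3. They were also picked by their low level in Ctr 1, so their share is not independent support for an interferon pattern. The STAT6 letters were in 15 of the 121 promoters (12.4%) and in 6 of the 48 (12.5%), against 6.64%, and the interferon letters were in 4 of 28 promoters of the IL-4/IL-13 list (14.3%). The 4 genes farthest below in Ctr 1 at a mean of at least 10 TPM were Ms4a4c, Ifit3b, Ly6a and Slfn1. Ms4a4c, of a family of membrane-spanning proteins, had 2.00, 165 and 227 TPM and 25, 2319 and 2863 reads, the largest difference of all at -6.54 log2, and Ly6a, the surface antigen Sca-1, had 3.13, 81.0 and 152 TPM.

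Neighbouring groups were also lower in Ctr 1, by less. The score of the LPS/IFN-γ response list was 2.63, 3.35 and 3.66 log2 CPM, with 7 of 19 members over 2-fold below, against 1.46% of all genes. The chemokine score was 3.33, 4.01 and 4.22, with 4 of 12 over 2-fold below, against the same 1.46%. A gene can be in more than 1 list, so the counts of different lists may share genes. Ccl8 had 4.10, 21.9 and 19.5 TPM and Ccl4 had 14.4, 42.1 and 47.1 TPM, while Ccl6, the most abundant chemokine, had 873, 816 and 866 TPM. Among lineage genes Fcgr1, the high-affinity IgG receptor, had 83.6, 248 and 253 TPM and was the 1 member over 2-fold below. Mmp13, a collagenase, had 31.7, 83.2 and 97.5 TPM.

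The G2/M and cholesterol synthesis genes were higher in Ctr 1. Of 25 G2/M genes, 24 were highest in Ctr 1, against 35.6% of all genes, and 12 were over 2-fold above both others, against 0.612%. The score was 3.09, 1.75 and 2.17 log2 CPM. Mki67, the proliferation antigen Ki-67, had 15, 3.90 and 5.59 TPM, Top2a, a topoisomerase of dividing cells, had 12.6, 4.56 and 5.87 TPM, and cyclin B2 (Ccnb2) had 10.4, 2.11 and 3.72 TPM. Levels were low in all libraries, since no member of this list reached 10 TPM in every one, against 6883 of all 21859 protein-coding genes. Without Ctr 1 the range of the G2/M score was 0.424, against 1.34 with it, so Ctr 2 and Ctr 3 also differed. For G1/S genes 20 of 25 were highest in Ctr 1 but 1 was over 2-fold above both others, and the replication clamp Pcna varied little at 648, 556 and 563 TPM.

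All 23 cholesterol synthesis genes past the filter were highest in Ctr 1 (35.6% of all genes), though only 2 were over 2-fold above both others (0.612% of all genes). The score was 5.49, 4.85 and 4.84 log2 CPM, a range of 0.659 with Ctr 1 and 0.0202 without it. Hmgcs1, which makes the precursor of mevalonate, had 97.5, 61.9 and 61.9 TPM and Sqle, the squalene epoxidase, had 35.8, 15.2 and 16.8 TPM. The 4 genes farthest above in Ctr 1 at a mean of at least 10 TPM were Fn1 (fibronectin), Apoc2 (an apolipoprotein), Bex1 and Ifi27. Apoc2 had few reads (115, 85 and 16), and its place here rests mostly on its low level in Ctr 3. Fn1 had 32.0, 10.2 and 7.47 TPM and Bex1 had 88.8, 43.5 and 26.0 TPM. Ifi27, an interferon-inducible gene outside the list, had 100.5, 39.9 and 44.9 TPM (1.20 log2) and so ran opposite to the list.

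**Figure D5:**
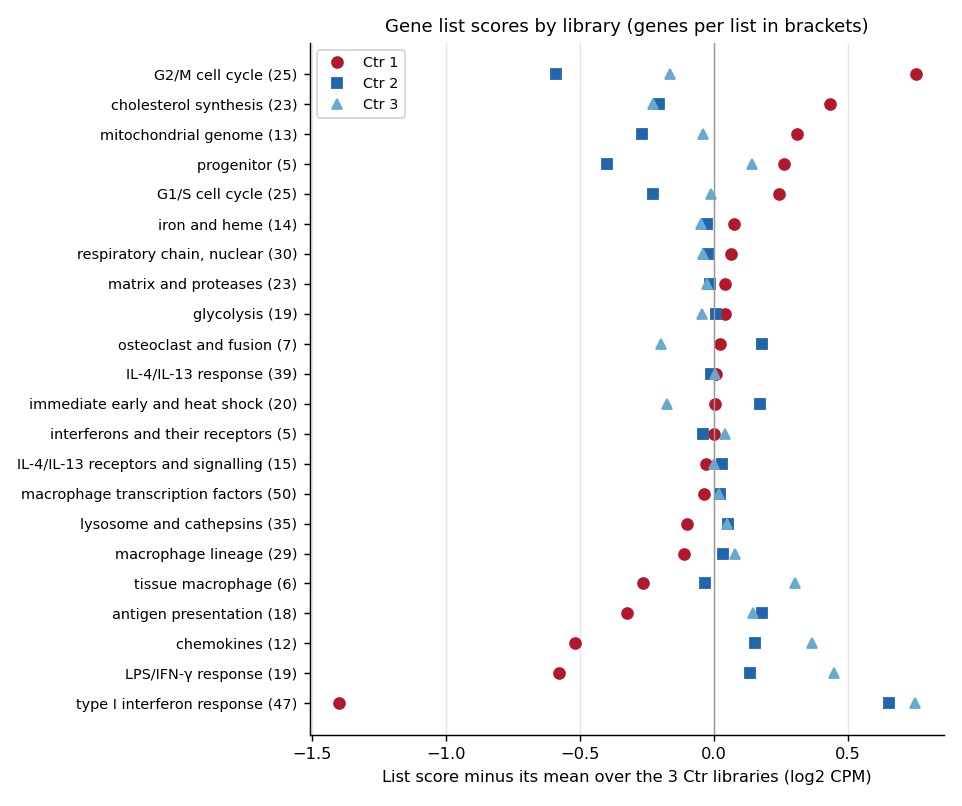
Mean log2 CPM of each gene list in Ctr 1, Ctr 2 and Ctr 3, minus the mean of the 3 libraries, with the number of genes past the filter in brackets. Ctr 1 is the lowest for the type I interferon response (range 2.15) and the highest for G2/M (1.34) and cholesterol synthesis (0.659). For the IL-4/IL-13 response the scores nearly coincide, although single members differ in both directions.

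Ctr 2 and Ctr 3 had few genes of their own. By the same rule, genes that set Ctr 2 apart were Car2 (carbonic anhydrase 2), with 5.95, 38.0 and 11.6 TPM, and on the lower side Asns (asparagine synthetase), with 16.6, 5.51 and 10.6 TPM. Ctr 3 was lowest for Hipk2, a nuclear kinase, at 100.4, 95.2 and 34.3 TPM and for Apoc2 at 19.8, 13 and 2.73 TPM. The other genes that this rule named above in Ctr 2 and Ctr 3 were those already low in Ctr 1. Which difference between the experiments goes with the position of Ctr 1 was not tested, as the labels give no date, batch or animal for the libraries.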

How the data were processed

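Stranded mRNA libraries were sequenced by the authors, and gene values came from the RNA-seq Analysis Portal of QIAGEN. The genome build named in the submitters' processing notes is GRCm38, while the aligner and annotation release are not given in the sources used here. The authors deposited counts (whole reads per gene, not normalized), RPKM (the same reads corrected for exon length and for depth) and TPM (scaled to the same sum per library). Of 24 value columns, 9 were used, and 15 were not used (the other group, and the authors' CPM). The table splits 175 rows by a numeric suffix, of which 52 are protein-coding. For a list gene found only under a suffix, the protein-coding row with most reads was taken. In ranks, shares and counts over all genes, these rows stayed separate.

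Depth is the total count of each library. Levels are the deposited TPM. The deposited RPKM served for 1 alternative. Spread was computed from the deposited counts in R 4.3.3 with edgeR 4.0.16, with filterByExpr (minimum count 10, minimum total 15), TMM factors, log2 CPM with a prior count of 2 and an intercept-only dispersion. The step was tested on simulated data. As there is 1 group, no hypothesis test was run and no p-value is given. Coordinates are from GENCODE release M21 (GRCm38) and promoters from RefSeq (GRCm38.p6).

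The members and the 30 gene lists (595 genes) were chosen with earlier results of these data known. Named genes are 6 markers, the 15 most abundant genes, the 3 highest of each list (for polarization lists also the 3 lowest), for each library the 4 genes farthest above and below at a mean of at least 10 TPM, interferon list members of at least 10 TPM, and list members without reads. Other genes are named for their role or after their values were seen. Alternatives were other normalizations, filters, scales and leaving out each library. The values of a few genes are not reported here.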

Additional observations from a re-analysis of the deposited data

How the results depend on the processing

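Of 69 alternative values, 55 stayed within the limits used (1.5 times for counts, otherwise 1 SD between libraries or 1.5 times) and 14 moved. The count of genes with a range over 2-fold (550) rose to 1970 without a low-count filter, a setting that keeps genes with few reads, and was 135 for genes with at least 10 TPM in every library and 284 on log2(TPM + 1), which understates the differences of low genes. Leaving out each library in turn gave 114 to 379 such genes, the lowest without Ctr 1. In the same way the common biological coefficient of variation (0.152) was 0.100 to 0.185, and the score range was 0.0971 to 2.15 for the type I interferon response, 0.424 to 1.34 for G2/M and 0.0202 to 0.658 for cholesterol synthesis, each lowest without Ctr 1. The share of the 100 most abundant genes (45.5%) was 31.7% of counts and 42.0% without genes of the mitochondrial genome. Among members with at least 1 TPM in a library, the median rose from 49.9 to 66.6 TPM for the IL-4/IL-13 response and from 1.64 to 8.82 TPM for the LPS/IFN-γ response. For the latter a geometric mean gave 3.69 TPM, and leaving out each library gave 1.72 to 1.86 TPM. Other normalizations moved none of these results. No paired analysis was possible because the results come from 1 group and no test. With 3 libraries, an SD is itself imprecise, and genes under 1 TPM rest on few reads.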

Other observations

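The table also held abundant rows outside the protein-coding genes. Ifi30, the thiol reductase of antigen processing, is listed as a processed transcript and had 803 ± 115 TPM. The long noncoding RNAs Malat1 and Neat1 had 208 ± 4.12 and 172 ± 8.52 TPM and were nearly equal in the 3 libraries. A ribosomal RNA row (CT010467.1) had 463, 4632 and 741 TPM in Ctr 1, Ctr 2 and Ctr 3 and was thus highest in Ctr 2, the library in which protein-coding genes took 98.9% of counts.

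Genes of osteoclasts and of cell fusion, which Mφs also express when they form giant cells under IL-4, were measured in part. Ctsk (cathepsin K) had 191, 362 and 224 TPM, Ocstamp 71.6, 60.9 and 46.8 TPM and Dcstamp 50.9, 56.0 and 43.9 TPM, while Calcr, the calcitonin receptor of mature osteoclasts, had no read. Tissue macrophage genes were uneven: Cd5l, a secreted scavenger protein, had 150, 209 and 279 TPM and Folr2, a folate receptor, had 79.2, 96.1 and 58.1 TPM, while Gata6, Clec4f, Sall1 and Lyve1 had no read in any Ctr library. Spp1 (osteopontin) had 854, 1528 and 1237 TPM and Igf1 500, 437 and 488 TPM. Glycolysis genes were led by Aldoa at 1301 ± 89.3 and Pkm at 1199 ± 124 TPM. None of the 19 had a range over 2-fold, close to the 5.03% of all genes past the filter. Hspa1b, an inducible heat shock protein, had 4.49, 8.35 and 0.742 TPM, whereas the constitutive Hspa8 had 1136 ± 26.9 TPM.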
